A study of Mus musculus with 6 samples.

Results

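The genes described here are 10 genes of the neutrophil, the short-lived phagocyte of the blood, chosen by symbol: S100a8, S100a9, Camp, Ngp, Ltf, Lcn2, Elane, Mpo, Retnlg and Csf3r. All 10 were found among the 33924 genes of the deposited table. The RNA came from RPE/choroid, the retinal pigment epithelium (RPE) scraped from the eyecup together with the vascular choroid beneath it. The mice were C57BL/6J animals, 3 labelled young (1 to 2 months) and 3 labelled aged (20 to 24 months in the titles, 22 to 24 months in the age field), with no treatment and no altered gene, and both eyes of a mouse formed a sample. The labels call all of them male, while the study's methods name both sexes and a slightly older young group. Ribosomal RNA was removed and poly(A) RNA was sequenced.

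The study asked how the transcriptome of this tissue differs between young and aged mice. The table gives for each gene 1 mean over the libraries of both age groups, and no value that belongs to a labelled mouse. Its other columns are the authors' own comparison of the age groups and were not used here. The values below are therefore levels of these genes in RPE/choroid of both ages together, without an SD between mice and without a test, and no difference between young and aged mice is given. The levels are also those of a bulk tissue, in which fewer cells of a type and less RNA per cell cannot be told apart.

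Neutrophils mature in the bone marrow and pack their antimicrobial proteins into granules in a fixed order. The enzymes of the primary granules, Mpo (myeloperoxidase) and Elane (neutrophil elastase), are transcribed in early precursors. The proteins of the secondary granules, Camp (cathelicidin), Ngp (neutrophilic granule protein), Ltf (lactoferrin) and Lcn2 (lipocalin 2), are transcribed later, and the circulating cell is rich in transcripts of S100a8 and S100a9. S100a8 and S100a9 encode the 2 chains of calprotectin, a calcium and metal binding protein of the cytosol that acts as an alarm signal when it is released. Retnlg encodes a secreted protein of the resistin family, and Csf3r encodes the receptor for granulocyte colony-stimulating factor. Several of these genes are not restricted to neutrophils. Lcn2 and Ltf are also made by epithelia, and Csf3r and the S100 pair by monocytes.

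The unit is the mean normalized count, taken here as the authors' average of gene counts after division by a size factor for each library. The study's methods instead describe abundance estimates per transcript, scaled by library total. Had the values already been corrected for transcript length, the division by length used here would correct for it again. Which of these holds was not tested, and it limits every level per kilobase and percentile below. For comparisons between genes it was divided here by the length of the longest annotated transcript, in kilobases. Of the 25517 genes with a mean above 0, 24089 (94.4%) had a length. Their median was 90.8 mean normalized counts per kilobase, with quartiles of 6.66 and 449. A percentile below is the percent of these 24089 genes with a lower level per kilobase.

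S100a9 and S100a8 had the highest levels of the 10 genes. S100a9 (ENSMUSG00000056071) had a mean normalized count of 450, which is 866 per kilobase and percentile 84.8. S100a8 (ENSMUSG00000056054) had a mean normalized count of 358, which is 719 per kilobase and percentile 82.3. The level per kilobase of S100a9 was thus 1.21 times that of its partner, and 1.20 times with the median transcript length in place of the longest. Whether neighbours in the order of levels differ beyond the spread between mice could not be examined, here or below. With the median length of every gene the pair lay at percentiles 72.8 and 70.1, below the upper quartile of all genes. Together the pair held 59.6% of the summed mean normalized counts of the 10 genes, and 79.7% of their summed levels per kilobase.

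**Figure D1:**
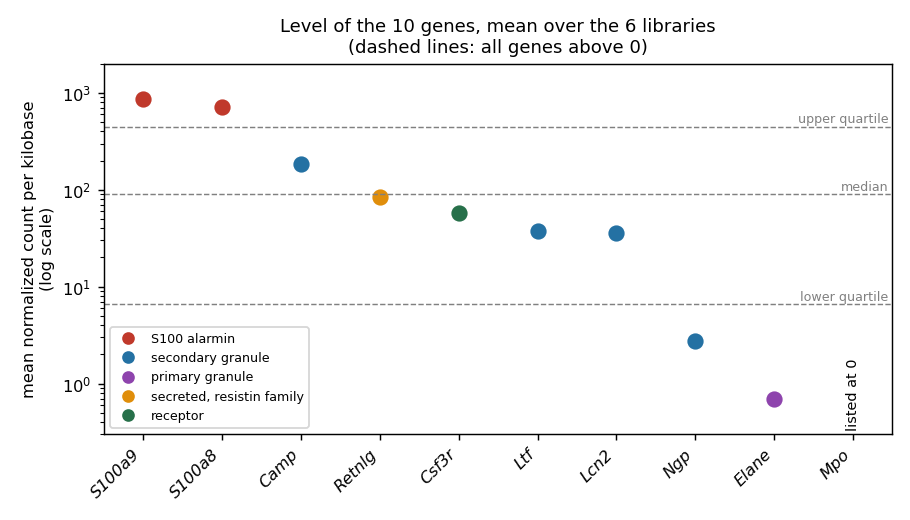
Mean normalized count per kilobase of transcript (log axis) for each of the 10 genes, as the authors' mean over 6 libraries, colored by the role of the protein. S100a9 (866) and S100a8 (719) lie above the upper quartile of all genes (449; with median lengths they lie below it), Camp (185) lies above the median (90.8), Ngp (2.72) and Elane (0.687) lie below the lower quartile (6.66), and Mpo is listed at 0.

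The secondary granule genes were spread widely. Camp (ENSMUSG00000038357) followed the S100 pair with a mean normalized count of 140, which is 185 per kilobase and percentile 60.4. Ltf (ENSMUSG00000032496), whose product binds iron, had a mean normalized count of 102, or 37.2 per kilobase. Lcn2 (ENSMUSG00000026822), whose product captures bacterial siderophores, had 49.4, or 35.9 per kilobase. Ltf and Lcn2 lay at percentiles 40.1 and 39.7, with a ratio of 0.967 for Lcn2 over Ltf. Ltf has 12 annotated transcripts, and its place depends on the length used. Camp was at 4.98 times the level of Ltf with the longest transcripts but at 0.978 times with the median length, and Lcn2 was then at 0.301 times the level of Ltf.

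Ngp (ENSMUSG00000032484), a cathelicidin-related gene, had the lowest level of the 4 secondary granule genes. Its mean normalized count was 3.32, which is 2.72 per kilobase and percentile 17.9. The level per kilobase of Camp was 68.0 times that of Ngp, with either length. The level of Ltf was 13.7 times that of Ngp with the longest transcripts and 69.5 times with the median length. The level of Ngp rests on 20 counts in all libraries together, so these ratios are uncertain. All 3 genes lie on chromosome 9, with 570129 bases between Camp and Ngp and 596258 bases between Ngp and Ltf. In the GENCODE M21 transcripts 100% of the words of 50 bases in the longest transcript of Camp, Ngp and Ltf occur in no other gene, and no other annotated gene overlaps them.

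The primary granule genes were at the lower end. Elane (ENSMUSG00000020125) had a mean normalized count of 0.676, or 0.687 per kilobase, at percentile 8.21. Mpo (ENSMUSG00000009350) was listed at 0. Mrpl53, a gene of the mitochondrial ribosome that cells of every type use, is listed at 0 too (it was chosen after its value was seen), so a 0 in this table need not mean that no transcript was present. Whether low levels above 0, such as those of Elane and Ngp, also fall short of the transcripts present was not tested. Mpo is also the 1 gene of the 10 with a further annotated gene, Gm11505, overlapping its exons on the other strand.

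Retnlg and Csf3r lay in the middle. Retnlg (ENSMUSG00000022651) had a mean normalized count of 50.5, or 85.2 per kilobase, at percentile 49.2. Csf3r (ENSMUSG00000028859) had the third highest mean normalized count, 202, but its longest transcript of 3481 bases brought it to 58.1 per kilobase and percentile 44.8. Retnlg was at 1.47 times the level of Csf3r per kilobase, or 0.859 times with the median length, and Csf3r at 1.56 times the level of Ltf, or 0.524 times. Of the words of 50 bases in Csf3r, 88.8% occur in no other gene, while for the other 9 genes the value is 100%. In all, 7 of the 10 genes had means of 10 or more, against 18479 of all 33924 genes. Of the 10, 3 (S100a9, S100a8 and Camp) had a level per kilobase above that of the median gene, or 4 with median lengths, where Ltf joined them. The median percentile of the 10 genes was 42.4. They took 0.00332% of all normalized counts.

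The members are spread over 7 chromosomes of GRCm38. S100a8 (chr3:90668978-90670035, plus strand) and S100a9 (chr3:90692632-90695721, minus strand) are 22596 bases apart. Camp (chr9:109847379-109849617, minus strand), Ngp (chr9:110419747-110423012, plus strand) and Ltf (chr9:111019271-111042767, plus strand) share a chromosome. Lcn2 lies at chr2:32384633-32388252 (minus strand) and Csf3r at chr4:126024550-126044440 (plus strand). Elane lies at chr10:79886247-79888215, Mpo at chr11:87793581-87804413 and Retnlg at chr16:48872621-48874496, all on the plus strand.

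The bases before the start of 4 members, picked after the levels were known, are shown. Camp and Ngp form the widest contrast among the secondary granule genes with the longest transcripts (with the median length Ltf and Ngp do). The size of this contrast is uncertain, as Ngp had few counts. S100a8 and S100a9 are the most abundant pair. The stretches are from RefSeq promoter windows on GRCm38.p6, ended where the most upstream GENCODE transcript begins, and read 5′ to 3′ on the strand of the gene. Capitals mark the motifs TTGCNNAA, a form of the site of C/EBP factors, and GAGGAAG, a form of the site of ETS factors such as PU.1, on either strand. Factors of both families are known to act in granulocyte development.
S100a8 (chr3:90668821-90668977, plus strand): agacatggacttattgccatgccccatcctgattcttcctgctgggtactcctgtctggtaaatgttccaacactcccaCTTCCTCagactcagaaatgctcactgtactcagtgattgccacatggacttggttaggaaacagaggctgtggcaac
S100a9 (chr3:90695722-90695971, minus strand): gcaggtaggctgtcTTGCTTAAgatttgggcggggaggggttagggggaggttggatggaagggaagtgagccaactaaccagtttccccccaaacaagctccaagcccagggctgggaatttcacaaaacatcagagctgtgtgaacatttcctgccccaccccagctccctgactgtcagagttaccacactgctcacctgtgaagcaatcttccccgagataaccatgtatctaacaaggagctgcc
Camp (chr9:109849618-109849706, minus strand): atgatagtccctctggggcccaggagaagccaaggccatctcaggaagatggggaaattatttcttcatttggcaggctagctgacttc
Ngp (chr9:110419558-110419746, plus strand): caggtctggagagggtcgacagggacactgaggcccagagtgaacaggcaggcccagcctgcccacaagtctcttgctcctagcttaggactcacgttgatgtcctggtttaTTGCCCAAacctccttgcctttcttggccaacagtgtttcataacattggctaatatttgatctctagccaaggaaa

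In the stretches shown, TTGCNNAA occurs before S100a9 and Ngp and GAGGAAG before S100a8, and neither occurs in the 89 bases before Camp. Over whole windows of 300 bases TTGCNNAA was found in 5 of the 10 members (Lcn2, Ltf, Ngp, Retnlg and S100a9) and in 10.8% of all 32851 windows. GAGGAAG was found in 5 of the 10 members (Csf3r, Elane, Lcn2, Mpo and S100a8) and in 13.6% of all windows. TATAAA, the TATA box core, was found in 2 members (S100a8 and S100a9) and in 13.6% of all windows. It does not occur in the stretches shown before S100a8 and S100a9. The windows run on past the start at which those stretches end. A member was counted if any of its windows held the motif, while the percentages are shares of windows. These are matches of letters on both strands and no measure of binding.

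S100a8 and S100a9 belong to a family of small calcium binding proteins, most of which lie near them on chromosome 3. Of 14 further S100 genes in the table, 7 had a level per kilobase above that of S100a9 and 6 a level below that of S100a8. The highest were S100a1 with 18448, S100a6 with 18241, S100b with 16159 and S100a10 with 8136 mean normalized counts per kilobase. S100a6 was at 21.1 times the level of S100a9 per kilobase and S100b at 18.7 times. S100b is known from glia and Schwann cells, among others, and S100a1 from muscle. Which cells of RPE/choroid gave these levels was not tested. The others ranged down to 0.404 per kilobase. Around the pair, and named for their place after the values were seen, S100a7a, the nearest S100 gene at -15.0 kb from the start of S100a8, had 73.1 per kilobase. S100a5 at -60.5 kb had 1.5 per kilobase and S100a6 at -56.1 kb had 18241, so adjacent genes of the cluster could lie far apart in level.

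**Figure D2:**
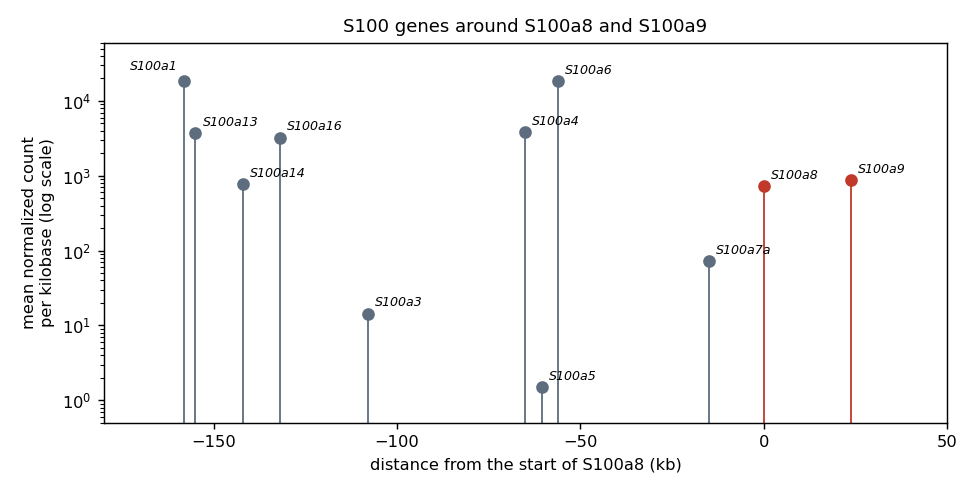
Mean normalized count per kilobase (log axis) of the S100 genes around S100a8, against the distance of their start from that of S100a8 in kb; S100a8 and S100a9 are in red. The pair has levels of 719 and 866, between S100a5 (1.5) and S100a1 (18448).

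Other genes of mature neutrophils had lower levels than the S100 pair, with 1 exception. The list held 16 genes found in the table, with a median of 24.2 mean normalized counts per kilobase. Of these, 14 had means of 10 or more, against 18479 of all 33924 genes. BC100530, a stefin A gene, was above S100a9 with 1411 per kilobase. In BC100530 only 66.5% of the words of 50 bases occur in no other gene, the largest number of shared words being with Stfa1, so reads may have been divided between the stefin genes. Pglyrp1, a peptidoglycan recognition protein of granules, had 369 per kilobase, Hp (haptoglobin) 186 and Stfa1 97.5. Genes of the circulating neutrophil, chosen for their role after the values were seen, were lower. Ly6g, by which mouse neutrophils are commonly gated, had a mean normalized count of 2.14, or 2.27 per kilobase, and the chemokine receptor Cxcr2 had 10.8, or 3.55 per kilobase. Mmp8 and Mmp9, proteases of the later granules, had 24.1 and 35.3 per kilobase.

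The list of granulocyte precursor genes had a median of 5.01 per kilobase over 8 genes, below that of the mature neutrophil list, and the ranges of the lists overlapped. The highest were Chi3l3 with 65.3, Olfm4 with 40.3, Prtn3 (proteinase 3) with 15.2 and Cebpe, a transcription factor of secondary granule genes, with 6.21 per kilobase. Chi3l3 is also expressed by macrophages, and 70.6% of its words of 50 bases occur in no other gene. Exons of Gm6999 overlap Olfm4 on the same strand. The level of Prtn3 was 22.1 times that of Elane, or 32 times with the median length, although both encode serine proteases of the primary granules. The level of Elane rests on a mean normalized count of 0.676, so this ratio is uncertain. Exons of Plppr3 overlap Prtn3 on the other strand. Fcnb was listed at 0.

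The binding partners of these proteins covered a wider range than the members. Bsg (basigin), a receptor for S100a9 that is abundant in RPE, had 42301 mean normalized counts per kilobase, which is 48.8 times the level of S100a9. Cd36, a scavenger receptor, had 1696, Slc22a17, a receptor for lipocalin 2, had 980, and Lrp1, a receptor for lactoferrin among many other ligands, had 639 per kilobase. Further genes were chosen for their role after the values were seen. Tlr4, through which calprotectin signals, had 266 per kilobase and Ager, the receptor for advanced glycation end products, 36.2. Csf3, the ligand of Csf3r, had a mean normalized count of 2.18, or 1.54 per kilobase. The neutrophil attractants Cxcl5, Cxcl1 and Cxcl2, ligands of Cxcr2, had 78.4, 58.2 and 4.72 per kilobase.

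Lists of markers place these levels within the tissue. RPE genes, which define the labelled tissue, had a median of 21213 mean normalized counts per kilobase over 9 genes, led by Ttr with 335233, Rgr with 63232 and Rpe65 with 61154. The lowest of them was Best1, an RPE chloride channel, with 39.3 (named after its value was seen). The level of Rpe65 was 70.6 times that of S100a9. Genes of neighbouring tissues were abundant in the same libraries, with medians of 7130 for rod photoreceptors and 12809 for skeletal muscle. Neither photoreceptors nor skeletal muscle belong to the labelled tissue. Pigment genes used as melanocyte markers (Tyr, Tyrp1, Dct, Pmel and Mlana) had a median of 39758, and RPE expresses pigment genes too, so they do not mark melanocytes alone here.

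Among markers of blood and immune cells, the median of 12 monocyte and macrophage genes was 1207 per kilobase, and 7 of them, led by Lyz2 with 92625 and C1qa with 12659, were above S100a9. Lyz2, which neutrophils also express, was at 107 times the level of S100a9, and C1qa, which they lack, at 14.6 times. Mast cell genes had a median of 469 per kilobase, B and plasma cell genes 114, platelet genes 32.7 and T cell genes 28.6, against 47.7 for the 10 neutrophil genes. Of 9 red cell genes 7 were in the table, with mean normalized counts from 45.2 to 90982, and the part of blood in the levels of the neutrophil genes was not tested. Differences between these lists were not tested either, as the pooled means have no replicate spread.

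**Figure D3:**
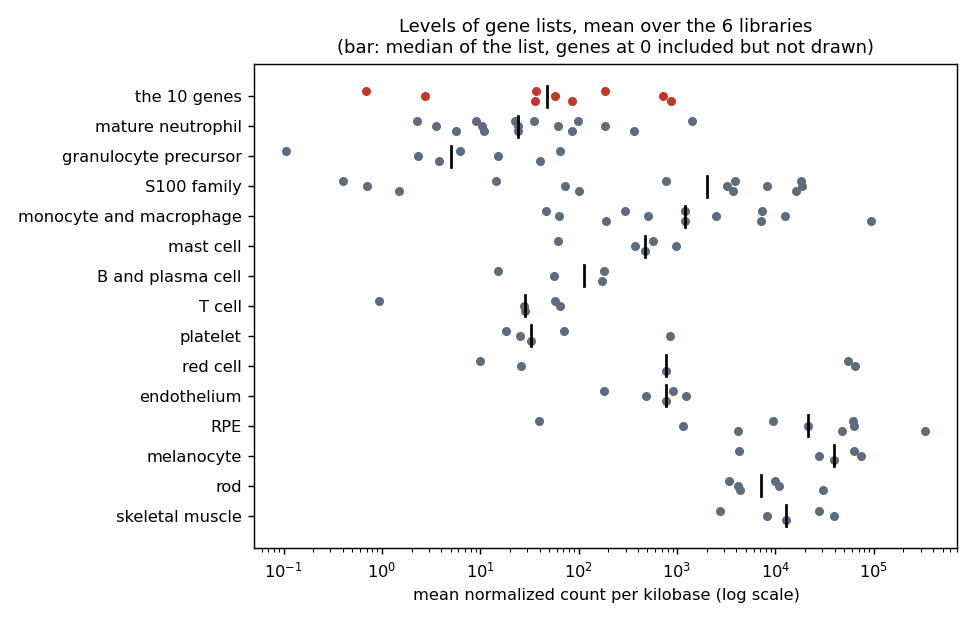
Mean normalized count per kilobase (log axis) of the genes of 15 lists that have a length and a mean above 0, as the authors' mean over 6 libraries, with a black bar at the median of each list (genes at 0 included). The 10 genes (red, median 47.7) lie nearest to the T cell (28.6), platelet (32.7) and mature neutrophil (24.2) lists and below the macrophage list (1207), the RPE list (21213) and the list of pigment genes used as melanocyte markers (39758).

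For the sparsest genes the values of single libraries could be recovered. A mean of whole counts over 6 libraries is a sum of whole multiples of 6 numbers, and genes with a single count show these 6 numbers. All 5831 genes with a mean above 0 and up to 5 had exactly 1 combination of whole counts that gives the printed mean. The libraries found in this way carry no label and could not be assigned to an age group. They are named A to F in order of falling size factor, from 1.06 to 0.959. Of the 15243 counts above 0 in these genes 69.8% were even, so the counts may not be independent reads and no counting interval is given.

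Ngp had whole counts of 6 in library A, 0 in B, 0 in C, 8 in D, 2 in E and 4 in F. It was thus found in 4 of 6 libraries with 20 counts in all, and library D held 40.0% of them. Elane had 2 counts in library D and 2 in library E, and none in the other 4 libraries. These 2 libraries are among those in which Ngp was found. At counts this low a library without a count is no evidence that the gene was silent in it.

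Other neutrophil genes with few counts were named because their counts could be solved. Ly6g was found in all 6 libraries, with 4 counts in library A, 2 in B, 1 in C, 1 in D, 4 in E and 1 in F. Stfa2l1, a stefin A gene, was also found in all 6 libraries, with 4 counts in A, 2 in B, 2 in C, 12 in D, 4 in E and 2 in F. Library D thus held the highest count of Ngp and of Stfa2l1 but 1 of the lowest of Ly6g. Ctsg (cathepsin G), a primary granule protease, had 2, 0, 2, 2, 6 and 2 counts in libraries A to F. Ms4a3, a marker of granulocyte and monocyte progenitors, had 1 count, in library B. Csf3, the ligand gene, had 0, 2, 3, 6, 2 and 0 counts in libraries A to F, with its highest count in library D too. Thus no library had the highest count of all these genes.

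**Figure D4:**
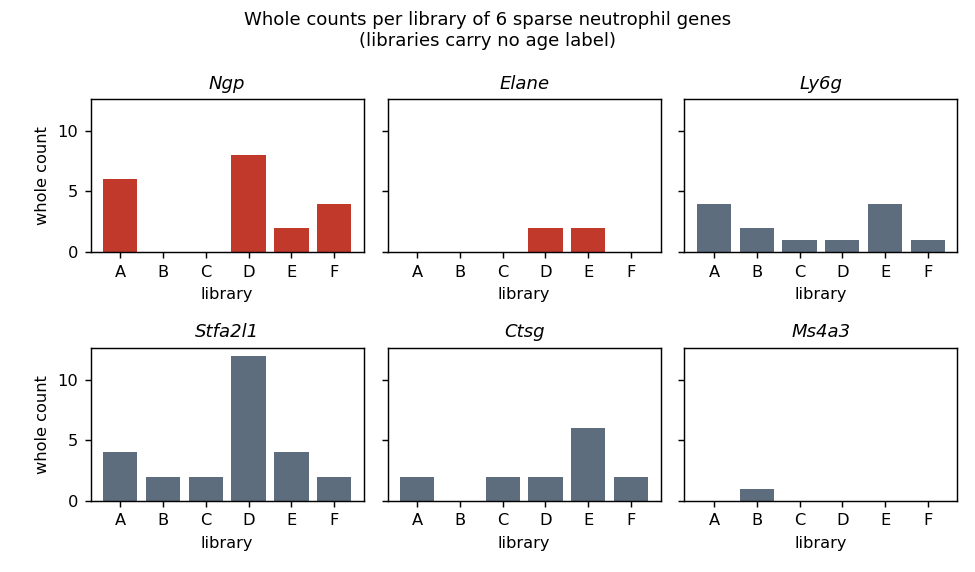
Whole counts in each of the 6 libraries, A to F, for Ngp and Elane (red) and for 4 other neutrophil genes with few counts (grey), recovered from the authors' means. Ngp has its highest count, 8, in library D and none in B and C, and Elane has counts of 2 in D and E only, while Ly6g has a count in every library.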

How the data were processed

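Libraries of rRNA-depleted, poly(A)-selected RNA were made from RPE/choroid of 3 young mice and 3 aged mice. Per the study's methods, reads were cleaned with BBDuk and aligned by STAR to the Ensembl transcripts of GRCm38. The authors then estimated transcript abundance with Sailfish, scaled it to normalized counts by library total and ran DESeq2. The version of DESeq2 is not given in the sources used here. The value used is a signal deposited by the authors, the mean normalized count over young and aged libraries together. The other deposited columns hold the authors' own comparison (fold change, its standard error, test statistic and p-values) and were not used. The planned fit of aged against young needs values of labelled libraries and was not run. The mean normalized counts add up to 40816668, and the depth of single libraries is unknown.

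Lengths and positions came from GENCODE M21 (GRCm38, the build of the files, in a later annotation than the authors used), matched by symbol or RefSeq synonym, and the longest transcript was used. All 10 members matched an entry in the RefSeq promoter table. Whole counts were solved for means up to 5 within the printed digits, a limit set after the data were seen (a higher limit gave a few genes more than 1 solution). On simulated data all 1908 genes had 1 solution, which was the right one. Python 3.11.15 with numpy 2.4.6 and pandas 2.3.3 was used. Members and lists were chosen with earlier results of these data known. All members are named, and from other lists at most the 4 genes highest per kilobase and any gene at 0 by rule. Genes outside this rule are marked in the text as chosen after their values were seen. The motifs and the promoters shown were also chosen then. Genes most like the members were not sought, as whole counts were found for only 2 members with counts.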

Additional observations from a re-analysis of the deposited data

How the results depend on the processing

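The level per kilobase depends on the transcript length chosen. With the median length of a gene's transcripts, Ltf moved from 37.2 to 189 mean normalized counts per kilobase, Csf3r from 58.1 to 99.2 and Lcn2 from 35.9 to 56.9, S100a8 moved to 728 and S100a9 to 872, and the levels of Camp, Ngp, Elane and Retnlg, with 1 annotated transcript each, were the same. The place among all genes moved more, as the lengths of the other genes changed too. S100a9 went from percentile 84.8 to 72.8, S100a8 from 82.3 to 70.1, Camp from 60.4 to 51.7, Retnlg from 49.2 to 43.6 and Ltf from 40.1 to 51.9. With that length Ltf came before Camp, and 7 of the 10 genes kept their place in the order. The number of members at or above the minimum was 8 with a minimum of 1 and 6 with a minimum of 50. The share of all genes at these other minimums was not counted. Their share of all counts was 0.00331% over genes at or above a mean of 10. Their median percentile of 42.4 became 44.3 with the median length, 41.3 without division by length, and 23.0 among genes with a mean of at least 10, where fewer sparse genes are ranked below them. A tolerance 3 times as wide left the whole counts of both members unchanged. No paired analysis was possible because no value belongs to a labelled sample. For the same reason the edgeR and DESeq2 fits, the replicate block and leaving out a replicate were not run. A pooled mean gives no spread between mice, which limits every order of levels given here.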
